A study of Mus musculus with 32 samples.

Results

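The genes described here are the 9 subunit genes of the AP-1 transcription factor family and of its closest partners that were chosen by name: Fos, Fosb, Fosl1, Fosl2, Jun, Junb, Jund, Maff and Atf3. The choice was made with earlier results of these data known. All 9 were found by their Ensembl identifiers among the 41388 genes counted, and all 9 passed the filter on low counts in every comparison. AP-1 is a dimer of basic leucine zipper proteins, usually a JUN protein with a FOS, ATF or MAF partner, that binds short palindromic DNA elements. Cytokines raise it through MAP kinase cascades, which both phosphorylate the JUN and FOS proteins and switch on their genes, and in cartilage AP-1 is known for driving matrix-degrading enzymes such as collagenases and stromelysins. FOS family proteins do not readily pair with each other and usually take a JUN partner, whereas JUN proteins can also pair among themselves.

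RNA was sequenced from unpassaged primary chondrocytes of newborn C57BL/6 mouse pups, isolated from the sternum and ribs without regard to sex, in 32 libraries that make 16 conditions of 2 libraries each. Virus-free wild-type chondrocytes were untreated, or given the LDHA inhibitor FX11 at 40 µM, the inflammatory cytokine IL-1β at 10 ng/mL, or both, for 24 h. In 3 floxed lines loxP sites flank the lactate dehydrogenase A gene (Ldha f/f), the gene of a rate-limiting NAD salvage enzyme (Nampt f/f) or the gene of IκB-ζ, a nuclear cofactor of NF-κB (Nfkbiz f/f). Their chondrocytes were first infected for 24 h with an adenovirus for eGFP alone (GFP) or for Cre and eGFP (Cre) and then kept for 24 h with or without IL-1β at 10 ng/mL. The study asked how inflammatory stimulation and these deletions change catabolic gene expression in chondrocytes. Every floxed culture carried adenovirus and no wild-type culture did, and no library used here had Cre virus without a floxed target, so an effect of the Cre virus itself and of the deletion cannot be told apart. The labels do not say whether the 2 libraries of a condition came from separate cultures or animals, so p-values measure only the spread between these libraries, which may be technical. In bulk RNA fewer cells of a type and less RNA per cell cannot be told apart either.

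Library totals ran from 15830658 to 39959888 assigned reads, and the lowest count of any of the 9 genes in any library was 27, for Fosb. The titles number the libraries in 2 series, here set 1 (12 libraries) and set 2 (20 libraries, with all Nfkbiz f/f cultures), and what the sets stand for is not stated. The targeted genes ran with their labels. Ldha was at 876 and 937 CPM (read counts relative to the library total, scaled by TMM factors) in Ldha f/f GFP cultures and at 111 and 119.8 CPM after Cre. Nampt was at 54.7 and 60.1 CPM and then 6.77 and 6.80 CPM in Nampt f/f cultures. In Nfkbiz f/f cultures Nfkbiz was at 16.0 and 16.9 CPM with GFP and 9.55 and 8.18 CPM with Cre, and under IL-1β at 228 and 233 CPM and then 29.1 and 32.0 CPM. The 10 chondrocyte markers summed to between 13446 and 99172 CPM over all libraries. A pair of wild-type libraries of set 2 ran against their labels. The library labelled IL-1β held 0.790 CPM of Mmp3, a stromelysin that IL-1β raises, and the library labelled FX11 held 2033 CPM. The set 1 libraries of the same labels held 9293 and 1.21 CPM. Tests in wild-type cells were made with and without this pair, and correlations over the conditions only with it.

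The genes lie apart in the mouse genome, on the GRCm38 build. The FOS genes are Fos (ENSMUSG00000021250) on chr12:85473890-85477273, plus strand, Fosb (ENSMUSG00000003545) on chr7:19302721-19310045, minus strand, Fosl1 (ENSMUSG00000024912) on chr19:5447703-5455945, plus strand and Fosl2 (ENSMUSG00000029135) on chr5:32136472-32157831, plus strand. The JUN genes are Jun (ENSMUSG00000052684) on chr4:95049034-95052222, minus strand, Junb (ENSMUSG00000052837) on chr8:84976909-84978748, minus strand and Jund (ENSMUSG00000071076) on chr8:70697739-70700616, plus strand, and the other partners are Maff (ENSMUSG00000042622) on chr15:79347541-79359072, plus strand and Atf3 (ENSMUSG00000026628) on chr1:191170296-191183340, minus strand. Jun, Junb and Jund are single-exon genes of 3189, 1840 and 2878 bases, and the other 6 genes have introns.

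Of the 9 genes, 8 have a promoter window (250 bases before to 50 after the transcription start) in RefSeq's table for GRCm38.p6, with 3 alternative starts for Maff, and Fosl1 has none there. The windows were searched on both strands because several of these genes are known to be under the control of AP-1, ATF/CREB proteins, serum response factor or NF-κB. The AP-1 element TGACTCA was in none of the 10 windows (5.20% of all 32851 promoters hold it), and the CArG box of serum response factor was in none either (1.63%). Sequence outside the windows was not searched, so a gene without a match may hold such an element farther from its start. The related 8-letter element TGACNTCA was in 3 windows, those of Jun and of 2 Maff starts (8.83%), the ATF/CREB core ACGTCA was in 3 windows, those of Fos, Maff and Atf3 (7.51%), and the NF-κB consensus was in 4 windows, those of Fos, Fosb, Fosl2 and Maff (8.46%). The Maff element TGACGTCA is counted under both of the former. The stretches below show these letters in capitals for the 5 genes whose changes are described most closely, each on the strand of the gene, and a match of letters is a description of the sequence and not a binding site.
Fos, chr12:85473812-85473841, plus strand, ATF/CREB core: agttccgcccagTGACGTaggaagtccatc
Jun, chr4:95052249-95052278, minus strand, TGACNTCA: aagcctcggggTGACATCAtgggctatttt
Maff, chr15:79347480-79347509, plus strand, TGACNTCA: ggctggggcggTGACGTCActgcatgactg
Maff, chr15:79348322-79348351, plus strand, NF-κB consensus: tgttgtctctGGAGTTTCCCctggctggag
Atf3, chr1:191183324-191183353, minus strand, ATF/CREB core: attaatagcattACGTCAgcctgggattgg
Fosl2, chr5:32136280-32136309, plus strand, NF-κB consensus: agatcggggaGGGAGTCCCCcagagctgcc
The matches begin 66 bases before the start in Fos, 45 in Jun, 29 and 70 before the respective Maff starts, 8 in Atf3 and 182 in Fosl2.

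Levels of different genes were compared per kilobase of exon, as TMM-scaled RPKM, over the 6 GFP libraries without IL-1β. Jund, the JUN protein made in most resting cells, stood highest at 39.3 ± 1.90 RPKM (SD, n = 6) and above Jun in 6 of 6 libraries. Jun (29.3 ± 5.42), Fosl2 (28.4 ± 4.52) and Fosl1 (25.7 ± 11.1) followed with overlapping ranges, as did Atf3 (19.0 ± 1.41) and Junb (17.8 ± 3.34). The ranges of Fos (3.40 ± 0.517) and Maff (3.30 ± 0.658) overlapped, and Fosb was lowest at 0.626 ± 0.204 RPKM. Of the summed FOS family level, Fosl2 made up 50.5% ± 7.49 and Fosl1 42.3% ± 8.97, while the founding member Fos made up 6.18% ± 1.76 and Fosb 1.08% ± 0.171 (SD, n = 6).

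With IL-1β the order changed. The summed FOS family level was 58.1 ± 15.7 RPKM without and 173 ± 28.7 RPKM with IL-1β, and the summed JUN family level 86.5 ± 9.35 and 165 ± 6.24 RPKM (SD, n = 6 each). Fosl1 had the highest mean at 96.3 ± 36.6 RPKM and was above Junb (68.4 ± 4.49) in 4 of 6 libraries, with overlapping ranges. Fosl2, Jun and Jund followed at 67.4 ± 8.38, 54.7 ± 8.59 and 42.4 ± 7.42 RPKM, each overlapping its neighbour. The order was not that of every line. In Nfkbiz f/f cultures Fosl1 averaged 51.2 RPKM, below Fosl2 (76.8), Junb (69.7) and Jund (51.7). Jund went from 45.8% ± 4.34 to 25.6% ± 4.34 of the JUN family sum and Junb from 20.5% ± 1.77 to 41.3% ± 1.68, while Jun stayed near a steady share at 33.7% ± 3.31 and 33.1% ± 5.28.

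**Figure D1:**
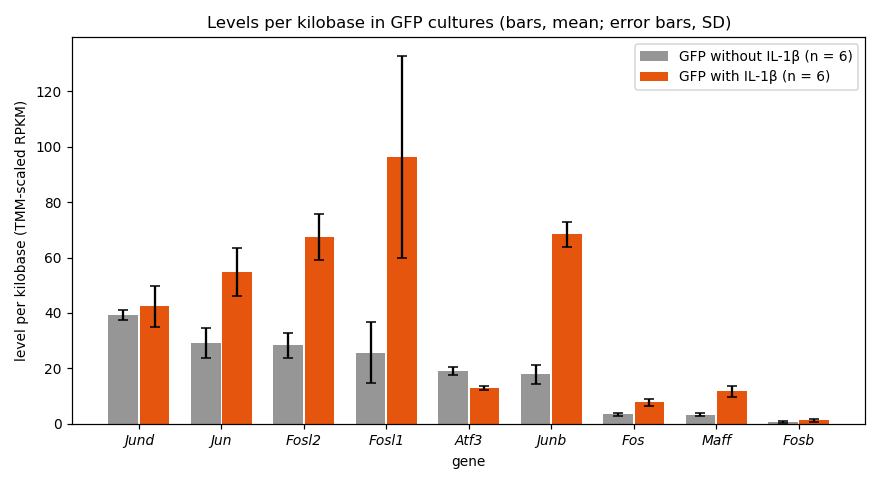
Mean TMM-scaled RPKM (y axis) of the 9 genes (x axis, ordered by their level without IL-1β) in 6 GFP libraries without and 6 with IL-1β, error bars showing the SD. Jund has the highest mean without IL-1β at 39.3 RPKM. Fosl1 has the highest mean with it at 96.3 RPKM, above Junb in 4 of 6 libraries. Atf3 is the member whose bar is lower with IL-1β.

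IL-1β changed most AP-1 genes in the GFP cultures of the 3 floxed lines, in which no targeted gene was deleted. Of the 9 genes 8 were called, against 56.2% of the 14283 genes tested. Since the 9 were chosen with earlier results of these data known, the values over all genes are given as a description only. The 7 that rose were Fos, Fosb, Fosl1, Fosl2, Jun, Junb and Maff (28.0% of all genes were called higher), Atf3 fell (28.3% were called lower), and Jund was not called. The libraries of 6 of the 7 did not overlap between the groups and neither did those of Atf3, against 9.58% of all genes that were higher and 10.9% that were lower without overlap. The median log2 fold change of the 9 genes was 1.20, against -0.01 over all genes tested.

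Fosl1, which encodes FRA-1 and is itself a classical AP-1 target, ran from 17.0 to 61.9 CPM with a median of 49.1 CPM in the 6 libraries without IL-1β, and from 85.8 to 224 CPM with a median of 184 CPM in the 6 with it. The lowest values of both groups were those of Nfkbiz f/f cultures, and its log2 fold change was 1.96 ± 0.08 (standard error here and for all fold changes; edgeR's quasi-likelihood test, Benjamini-Hochberg adjusted p = 1.41e-12). Fosl2, which encodes FRA-2, a FOS protein known for a part in cartilage matrix and in chondrocyte differentiation, ran from 127 to 198 CPM without and from 334 to 454 CPM with IL-1β, a change of 1.29 ± 0.09 (adjusted p = 4.22e-09). Fos, the prototype immediate early gene, was at 5.98 to 9.37 CPM and then at 14.4 to 21.6 CPM, a change of 1.20 ± 0.10 (adjusted p = 2.92e-08) that was still present 24 h after the cytokine was added. Fosb, the least expressed member, ran from 1.55 to 3.36 CPM and from 2.13 to 7.12 CPM. Its groups overlapped, with the Nfkbiz f/f libraries with IL-1β (2.13 and 2.94 CPM) inside the range of those without it. Its change was 0.92 ± 0.19 (adjusted p = 4.55e-04).

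Among the JUN genes the response was graded. Junb, whose protein can oppose JUN on some promoters, ran from 25.9 to 41.8 CPM with a median of 32.4 CPM without IL-1β and from 111 to 134 CPM with a median of 128 CPM with it, a log2 fold change of 1.99 ± 0.07 (adjusted p = 5.59e-13). Jun, the main transactivating subunit and the target of the kinase JNK, ran from 71.4 to 109 CPM and from 144 to 204 CPM, a change of 0.94 ± 0.04 (adjusted p = 8.04e-12). Jund was at 103 to 119 CPM without and 98.5 to 149.7 CPM with IL-1β, the groups overlapped, and its change of 0.13 ± 0.07 was not called (adjusted p = 0.115). That result moved when either of 2 Nampt f/f libraries was left out, to 0.17 without the set 2 GFP library (adjusted p = 0.0332) and 0.18 without the set 2 GFP library with IL-1β (adjusted p = 0.0284).

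The non-FOS, non-JUN partners went opposite ways. Maff, a small MAF protein that has no activation domain of its own, ran from 4.87 to 8.42 CPM without IL-1β and from 20.5 to 30.2 CPM with it, a log2 fold change of 1.86 ± 0.08 (adjusted p = 4.44e-12). Atf3, a stress-induced member of the ATF/CREB family that pairs with JUN proteins and often represses, was at 32.8 to 40.5 CPM with a median of 38.3 CPM without IL-1β and at 24.2 to 28.7 CPM with a median of 25.3 CPM with it, so every IL-1β library was below every other. Its log2 fold change was -0.52 ± 0.05 (adjusted p = 2.91e-07).

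**Figure D2:**
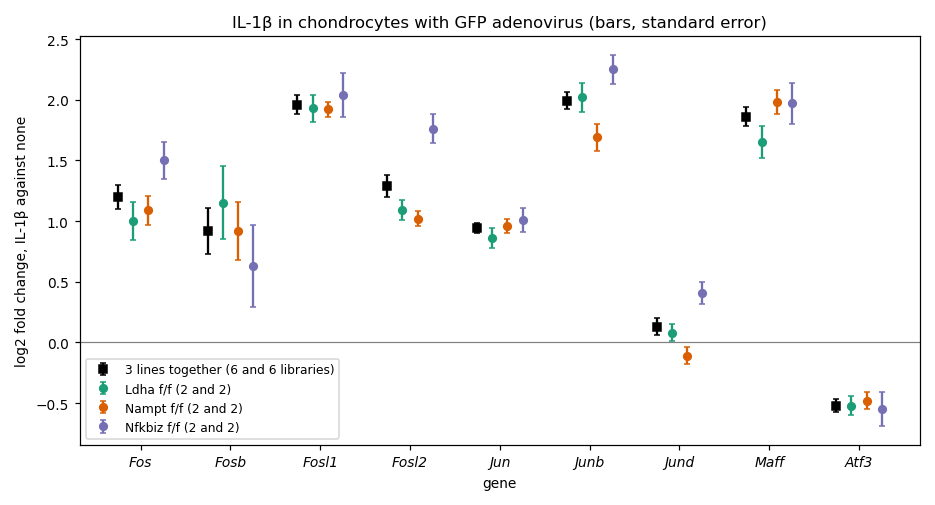
Log2 fold change of each gene with IL-1β against none in GFP cultures (y axis), from the fit over all 3 floxed lines (squares) and from each line alone (circles), error bars showing the standard error. Fosl1, Junb and Maff lie between 1.65 and 2.25 in all 3 lines, Jund between -0.11 and 0.41, and Atf3 between -0.55 and -0.48.

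In each line alone edgeR called 8 of the 9 genes, against 27.9% of all genes in Ldha f/f, 35.0% in Nampt f/f and 26.8% in Nfkbiz f/f cultures. The uncalled gene was Jund in Ldha f/f (0.08 ± 0.07, adjusted p = 0.44) and Nampt f/f cultures (-0.11 ± 0.07, adjusted p = 0.233) and Fosb in Nfkbiz f/f cultures (0.63 ± 0.34, adjusted p = 0.202). Some calls within a line rested on 1 library. Fosb lost its call in Ldha f/f cultures without either set 2 library (adjusted p = 0.0843 and 0.119) and in Nampt f/f cultures without either set 1 library (0.107 and 0.101). Atf3 lost its call in Nfkbiz f/f cultures without GFP replicate 2 (0.122) or without either GFP library with IL-1β (0.0832 and 0.0834). The size of the IL-1β response differed between the lines for 3 of the 9 genes in a test of line by IL-1β, which called 6.43% of all genes. Fosl2 changed by 1.09 ± 0.08 in Ldha f/f, 1.02 ± 0.06 in Nampt f/f and 1.76 ± 0.12 in Nfkbiz f/f cultures (adjusted p for the difference = 2.06e-05). Within set 2 alone its levels went from 174 to 366 CPM, from 173 to 334 CPM and, in the 2 Nfkbiz f/f libraries each, from 127 and 143 to 454 and 445 CPM. Junb changed by 2.02 ± 0.12, 1.69 ± 0.11 and 2.25 ± 0.12 in the same order (adjusted p for the difference = 0.00519, and 0.0528 without the set 1 Nampt f/f GFP library). Jund was called higher in Nfkbiz f/f cultures alone, from 112 and 115 CPM to 148 and 149.7 CPM, a change of 0.41 ± 0.09 (adjusted p = 0.00428, and 0.0525 without replicate 2 of the Nfkbiz f/f GFP cultures), and the lines differed (adjusted p = 0.00302). Marker levels of other cells also differed between the lines. The summed fibroblast and perichondrium markers were at 654 to 826 CPM in Nfkbiz f/f and at 3241 to 4105 CPM in the other GFP cultures without IL-1β, with Pi16 under 1 CPM in all of them, and their part in these differences was not tested.

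Other genes of the pathway were counted in the same GFP cultures, in lists also chosen with earlier results of these data known. Of 20 tested MAP kinases and activators 14 rose and none fell (56.2% of all genes were called in either direction; median log2 fold change 0.33 against -0.01 over all genes), with, first by adjusted p, Map3k8, the kinase TPL2 that links IL-1 receptor signalling to ERK (2.54 ± 0.11, from a mean of 1.72 to 9.84 CPM), Map2k1 (0.49) and Mapk13 (1.55). Of 9 tested dual-specificity phosphatases, which switch these kinases off, 7 rose and Dusp8 fell, with a median of 0.53. Dusp6 went from 20.9 to 62.8 CPM, Dusp4 from 3.54 to 12.6 CPM and Dusp5 from 10.1 to 31.0 CPM. Of 18 tested immediate early and SRF-linked factors 12 rose, with Ier3 (3.04), Nr4a2 (1.63) and Ier5 (0.94) first by adjusted p, and Klf2 and Klf4 fell, the median being 0.63.

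The remaining AP-1 relatives were mixed. Of 5 tested bZIP proteins outside the 9 genes, 3 rose (Batf 1.74, Batf3 1.17, Atf2 0.27) and Jdp2, a repressor that binds JUN, fell by 0.95 on the log2 scale from a mean of 65.1 to 33.1 CPM. Among the MAF proteins the small Mafg (0.60) and Mafk (0.40) rose and the large Maf fell by 0.91. All 8 genes of the ATF4 and CHOP stress response, which induces Atf3 in many cells, fell, with a median of -0.74, and Ddit3 (-1.20), Chac1 (-0.86) and Atf5 (-0.74) came first. A link between their fall and that of Atf3 was not tested. Among 18 tested genes known as AP-1 targets 16 rose and Ccnd1 fell, with a median of 2.12. This list, too, was chosen with earlier results of these data known. Mmp3 went from a mean of 1.30 to 1166 CPM, Ptgs2 from 34.8 to 276 CPM and Il6 from 0.337 to 28.6 CPM. All 10 chondrocyte markers fell, with a median of -1.47, Cnmd (-2.13), Matn3 (-2.65) and Matn1 (-2.32) first.

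Markers of other cell types partly moved with IL-1β, and those of macrophages, leukocytes, endothelium and muscle were low. The summed macrophage and leukocyte markers were at 13.3 to 23.3 CPM without and 23.1 to 49.9 CPM with IL-1β, with 2 of 3 tested genes rising (Cd68 1.20 and Lyz2 0.67) while Fcgr1 stayed under 1 CPM in every GFP library. The endothelial and muscle markers were at 3.63 to 10.4 and 2.72 to 17.2 CPM, with Cdh5 under 1 CPM and 1 of 5 tested genes rising (Myod1 0.97). The fibroblast and perichondrium markers were at 654 to 4105 and 712 to 3137 CPM, with 2 of 5 tested genes rising (Dcn 0.81 and Twist2 1.59) and Col1a1 falling by 0.45. Their part in the changes of the AP-1 genes was not tested.

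Without IL-1β the number of AP-1 genes called for the Cre virus depended on the fit. In Ldha f/f cultures edgeR called 0 of the 9 genes, with 1 at an unadjusted p of 0.05 or less (5.52% of all genes were called, and 2821 of 15880 had such an unadjusted p). In Nfkbiz f/f cultures it called 0, with 3 at an unadjusted p of 0.05 or less (0.260% of all genes were called, and 910 of 15356 had such an unadjusted p). DESeq2 and limma called 0 in both. With the set as a replicate block edgeR called 2 in Ldha f/f cultures, Fosl2 (0.20, adjusted p = 0.0287) and Junb (0.25, adjusted p = 0.038). In Nampt f/f cultures 3 genes rose, against 14.4% of all genes called, and 6 were called with the replicate block, which added Fos (0.38, adjusted p = 0.0173), Jun (0.17, adjusted p = 0.00462) and Junb (0.19, adjusted p = 0.0155). Fosl1 went from 60.4 and 61.9 CPM to 80.9 and 77.9 CPM (0.38 ± 0.06, adjusted p = 0.00166), Fosl2 from 183 and 173 CPM to 222 and 204 CPM (0.26 ± 0.06, adjusted p = 0.0186) and Maff from 7.55 and 8.21 CPM to 10.9 and 10.0 CPM (0.42 ± 0.10, adjusted p = 0.015). Leaving out the set 1 Cre library took the calls of Fosl2 (adjusted p = 0.131) and Maff (adjusted p = 0.1), leaving 1 of the 3. Leaving out a GFP library took the call of Maff (set 1, adjusted p = 0.133) or of Fosl2 (set 2, adjusted p = 0.067). Markers were read in the same comparison. Of the chondrocyte markers in Nampt f/f cultures all 10 fell (median -0.63, summed level 72682 to 73190.1 CPM with GFP and 49648 to 50882 CPM with Cre), in Ldha f/f cultures 8 of 10 fell (median -0.49, 73829 to 74571 and 52727 to 53682 CPM), and in Nfkbiz f/f cultures the values overlapped (median -0.14, 82526 to 93709 and 71431 to 85136 CPM). The summed endothelial and muscle markers went from 9.68 to 10.4 CPM with GFP to 22.4 to 24.1 CPM with Cre in Nampt f/f cultures, where 2 of 6 rose, and from 7.84 to 8.79 to 15.3 to 16.6 CPM in Ldha f/f cultures, where 1 of 6 rose. Their part in the AP-1 values was not tested.

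Under IL-1β the calls are given by line, and differences between the lines were not tested. Comparing Cre with GFP, edgeR called 3 of the 9 genes in Ldha f/f (34.0% of all genes were called), 6 in Nampt f/f (48.4%) and 6 in Nfkbiz f/f cultures (17.4%). The count in Ldha f/f cultures was near the share of all genes. Fosl2 and Jun were lower in all 3 lines. Maff was higher in Ldha f/f and Nampt f/f and lower in Nfkbiz f/f cultures, where all 6 called genes were lower (9.20% of all genes were called lower). In the Ldha f/f line Fosl2, Jun and Maff were the called genes, in the Nampt f/f line Fosb, Fosl1 and Jund, all higher, joined them, and in the Nfkbiz f/f line Fos, Junb and Jund, all lower, did.

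**Figure D3:**
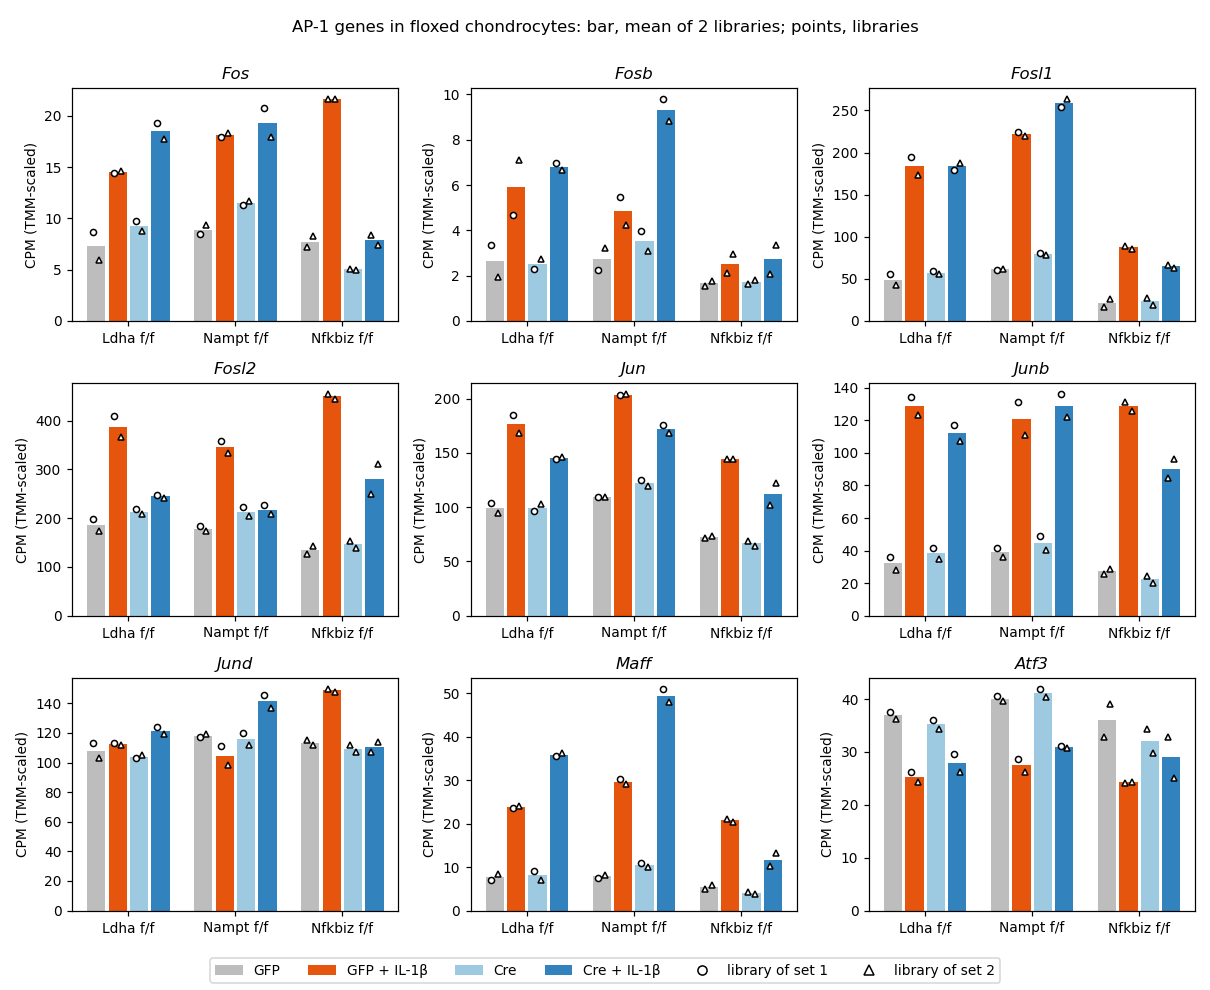
CPM (y axis, TMM-scaled) of each gene in the floxed lines (x axis), bars showing the mean of 2 libraries for GFP and Cre virus without and with IL-1β and points the libraries, with the shape giving the set. The Fosl2 bars for Cre with IL-1β stay near the level without IL-1β in Ldha f/f and Nampt f/f cultures, whereas the Maff bars for Cre with IL-1β are the highest of their line there and not in Nfkbiz f/f cultures.

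Fosl2 was the gene for which the interaction of Cre and IL-1β, the difference of the IL-1β response between Cre and GFP cultures, was called in every line. The ratio of mean levels with and without IL-1β was also lower with Cre in all 3 lines for Jun, Junb and Fosl1, for which it was not called in every line. In Ldha f/f cultures its level with GFP and IL-1β was 409 and 366 CPM and with Cre and IL-1β 248 and 242 CPM, so that IL-1β gave a 2.09-fold higher mean level with GFP and a 1.14-fold higher one with Cre. In Nampt f/f cultures the libraries were at 359 and 334 CPM and then at 226 and 208 CPM, and the ratio of means was 1.94 with GFP and 1.02 with Cre. In Nfkbiz f/f cultures they were at 454 and 445 CPM and then at 249 and 312 CPM, with ratios of 3.34 and 1.92. No library with Cre and IL-1β reached a library with GFP and IL-1β in any line. The interaction of Cre and IL-1β was -0.83 ± 0.11 in Ldha f/f cultures, with an adjusted p of 0.00139. It was -0.93 ± 0.09 in Nampt f/f cultures (adjusted p = 4.91e-05) and -0.81 ± 0.17 in Nfkbiz f/f cultures (adjusted p = 0.0137). Whether these sizes differ between the lines was not tested. Of the 9 genes it was called for 1 in Ldha f/f (11.5% of all genes; 3 with the replicate block, which added Junb at -0.41, adjusted p = 0.00727, and Maff at 0.53, adjusted p = 0.033), 3 in Nampt f/f (22.0%) and 2 in Nfkbiz f/f cultures (5.19%). Without the GFP replicate 1 library, or without either GFP library with IL-1β, Fosl2 in the Nfkbiz f/f line lost its call (adjusted p = 0.0833, 0.0843 and 0.0652).

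Jun followed with smaller differences. Under IL-1β its libraries went from 185 and 168 CPM with GFP to 144 and 146 CPM with Cre in Ldha f/f (-0.25 ± 0.08, adjusted p = 0.0325), from 203 and 204 CPM to 176 and 168 CPM in Nampt f/f (-0.24 ± 0.06, adjusted p = 0.0047) and from 144 and 144 CPM to 102 and 122 CPM in Nfkbiz f/f cultures (-0.36 ± 0.10, adjusted p = 0.0255). The groups did not overlap in any line. In Ldha f/f cultures the Jun call was lost without either library of GFP with IL-1β or of Cre with IL-1β (adjusted p from 0.0545 to 0.139). In Nfkbiz f/f cultures it was lost without GFP replicate 2 (adjusted p = 0.0524), without either GFP library with IL-1β (0.147 and 0.133) and without Cre with IL-1β replicate 1 (0.0763). Its interaction was called in Nampt f/f cultures (-0.41 ± 0.08, adjusted p = 0.00429) and not in Ldha f/f (-0.25 ± 0.11, adjusted p = 0.191) or Nfkbiz f/f cultures (-0.25 ± 0.14, adjusted p = 0.416). The antisense gene Junos overlaps a Jun exon on the other strand. The paper counted unambiguous reads only, and no source says that counting used strand. Reads in the overlap may therefore have been left out of the Jun count.

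Maff took the opposite course in the metabolic lines and in the Nfkbiz f/f line. Under IL-1β it stood at 23.6 and 24.1 CPM with GFP and at 35.6 and 36.2 CPM with Cre in Ldha f/f cultures (0.63 ± 0.12, adjusted p = 0.00332), and at 30.2 and 29.1 CPM and then 51.0 and 48.0 CPM in Nampt f/f cultures (0.74 ± 0.08, adjusted p = 3.48e-05). In Nfkbiz f/f cultures it stood at 21.0 and 20.5 CPM with GFP and at 10.2 and 13.2 CPM with Cre (-0.83 ± 0.16, adjusted p = 0.00338). Each pair of libraries lay apart from its counterpart, and the difference between the lines was not tested. Without a replicate block the interaction was not called for Maff in any line (0.55 ± 0.19, 0.32 ± 0.13 and -0.42 ± 0.25 in the order above, adjusted p = 0.0931, 0.105 and 0.441).

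Fos was called lower in the Nfkbiz f/f line, and a difference between the lines was not tested. Its libraries there under IL-1β were at 21.6 and 21.6 CPM with GFP and at 8.39 and 7.40 CPM with Cre. Without IL-1β they were at 7.17 and 8.27 CPM with GFP and at 5.07 and 5.00 CPM with Cre (-0.62 ± 0.16, adjusted p = 0.253). The ratio of means with and without IL-1β was thus 2.80 with GFP and 1.57 with Cre. Under IL-1β the log2 fold change of Cre against GFP was -1.46 ± 0.15 (adjusted p = 2.58e-05), and the interaction of -0.84 ± 0.22 had an adjusted p of 0.0483. That interaction call was lost in every fit that left out a library except the fit without Cre with IL-1β replicate 1 (adjusted p up to 0.181), and with DESeq2 (0.0593) and limma (0.0812). In Ldha f/f cultures Fos was at 14.4 and 14.6 CPM with GFP and at 19.3 and 17.7 CPM with Cre (0.39 ± 0.16, adjusted p = 0.0856, but 0.0277 with limma, 0.0216 with the replicate block and 0.0294 or 0.0263 without the set 1 or set 2 GFP library). In Nampt f/f cultures at 17.9 and 18.3 CPM and at 20.8 and 17.9 CPM (0.10 ± 0.11, adjusted p = 0.493).

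For the remaining JUN and FOS genes the values are given by line, with no test between the lines. Junb under IL-1β went from 131 and 126 CPM with GFP to 84.4 and 96.0 CPM with Cre in Nfkbiz f/f cultures (-0.52 ± 0.11, adjusted p = 0.00602) and was not called in Ldha f/f (-0.16 ± 0.11) or Nampt f/f cultures (0.09 ± 0.10). Jund went from 149.7 and 148 CPM to 107 and 114 CPM in Nfkbiz f/f cultures (-0.44 ± 0.09, adjusted p = 0.00444), back to the range of the cultures without IL-1β, and from 111 and 98.5 CPM up to 146 and 137 CPM in Nampt f/f cultures (0.43 ± 0.07, adjusted p = 3.26e-04; interaction 0.46 ± 0.09, adjusted p = 0.00604). Gm11175 overlaps Jund on the other strand, with the same limit as for Jun. Without GFP with IL-1β replicate 1 the calls of Jun, Junb (adjusted p = 0.0675) and Jund (adjusted p = 0.0586) were lost in the Nfkbiz f/f line, leaving 3 of 6.

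Fosb under IL-1β went from 5.46 and 4.22 CPM to 9.78 and 8.81 CPM in Nampt f/f cultures (0.94 ± 0.22, adjusted p = 0.0046). Fosl1 kept most of its level. It went from 224 and 219.9 CPM to 254 and 263 CPM in Nampt f/f cultures (0.23 ± 0.06, adjusted p = 0.00811, and 0.0878 and 0.0654 without GFP with IL-1β of set 1 or Cre with IL-1β of set 2). In Ldha f/f cultures it stood at 195 and 173 CPM and then at 179.7 and 188 CPM, which overlapped (0.03 ± 0.11, adjusted p = 0.846), and in Nfkbiz f/f cultures at 88.9 and 85.8 CPM and then 66.9 and 62.8 CPM (-0.44 ± 0.17, adjusted p = 0.101, but 0.00368 with no filter and 0.0497 without GFP replicate 1). Atf3, which fell with IL-1β, was not called for Cre in any line by edgeR. Its log2 fold changes under IL-1β were 0.18 ± 0.08 in Ldha f/f cultures (adjusted p = 0.123), 0.17 ± 0.07 in the Nampt f/f line (0.0783) and 0.25 ± 0.15 in the Nfkbiz f/f line (0.278, and 0.0499 without Cre with IL-1β replicate 2).

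**Figure D4:**
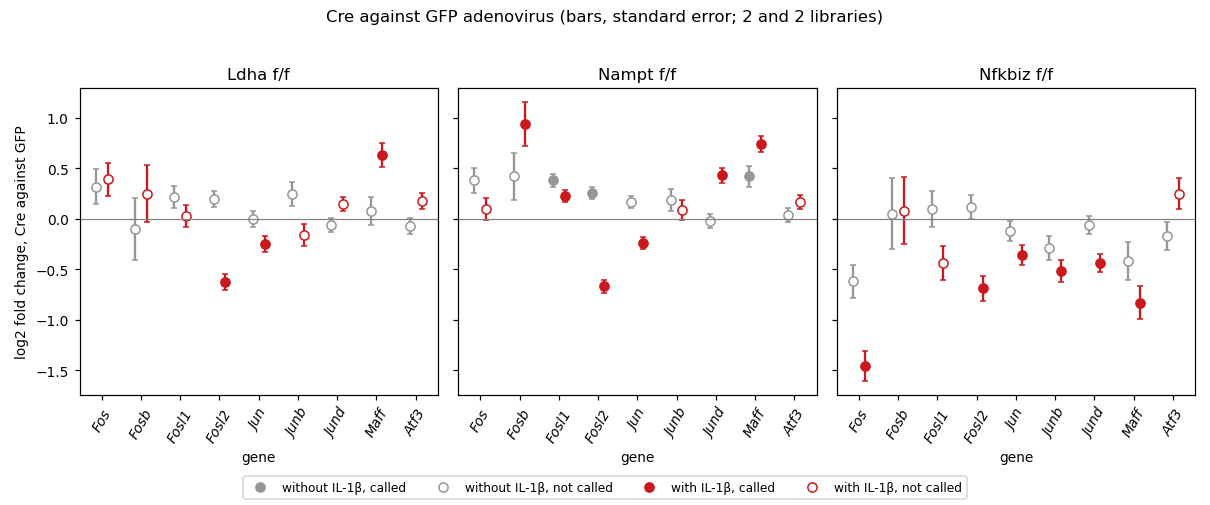
Log2 fold change of each gene with Cre against GFP virus (y axis) in each floxed line, without IL-1β (grey) and with it (red), filled where called at an adjusted p of 0.05 or less, error bars showing the standard error. The fits shown had no replicate block. Fosl2 and Jun with IL-1β lie below 0 in all 3 lines, Maff above 0 in Ldha f/f and Nampt f/f and below 0 in Nfkbiz f/f cultures, and Fos is lowest in Nfkbiz f/f cultures at -1.46.

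The genes known as AP-1 targets under IL-1β, comparing Cre with GFP, gave 11 lower and 5 higher of 18 tested in Ldha f/f (median -0.65 against -0.02 over all genes), 11 lower and 6 higher in Nampt f/f (-0.64 against -0.03) and 12 lower and 1 higher in Nfkbiz f/f cultures (-1.16 against -0.01). Mmp3 was at 875 and 850.1 CPM with GFP and 171 and 156 CPM with Cre in Ldha f/f cultures, at 867 and 828 CPM and then 157 and 146 CPM in Nampt f/f cultures, and at 1797 and 1782 CPM and then 286 and 271 CPM in Nfkbiz f/f cultures. Nfkbiz itself was lower under IL-1β in the lines where it was not the target, at 177 and 162 CPM with GFP and 70.0 and 64.8 CPM with Cre in Ldha f/f and at 199.7 and 199 CPM and then 67.9 and 59.5 CPM in Nampt f/f cultures. Of the dual-specificity phosphatases 5 of 10 tested rose and none fell in Ldha f/f, 6 rose and 3 fell in Nampt f/f, and 2 of 9 rose and 4 fell in Nfkbiz f/f cultures. Of 20 tested MAP kinases and activators 6, 10 and 0 rose and 3, 2 and 5 fell in the same order, against 34.0%, 48.4% and 17.4% of all genes called in either direction. Of 18 immediate early and SRF-linked factors 2, 3 and 0 rose and 9, 8 and 7 fell.

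Among the other lists in the same comparisons, 1, 2 and 2 of 5 other bZIP proteins fell and 0, 0 and 1 rose, always in the order of Ldha f/f cultures, Nampt f/f cultures and Nfkbiz f/f cultures, in which 34.0%, 48.4% and 17.4% of all genes were called. Likewise 1, 2 and 1 of 5 MAF proteins rose and 1, 0 and 1 fell. Of 8 ATF4 and CHOP genes 5, 5 and 0 fell and 0, 1 and 2 rose. Of 10 chondrocyte markers 9, 8 and 1 fell and 0, 0 and 1 rose. Their summed level with IL-1β was 26909 to 27022 CPM with GFP and 13446 to 14834 CPM with Cre in Ldha f/f, 25844 to 26767 and 14493 to 15247 CPM in Nampt f/f, and 30532 to 32634 and 36415 to 39097 CPM in Nfkbiz f/f cultures. Of the fibroblast and perichondrium markers 3 of 6, 3 of 6 and 2 of 4 fell and 1, 2 and 0 rose. Their summed level ran from 3077 to 3137 CPM and then from 1859 to 1895 CPM, from 2601 to 2638 and 1608 to 1609 CPM, and from 712 to 747 and 545 to 581 CPM. Of the macrophage and leukocyte markers only 1, in Nampt f/f cultures, was called, and it fell. Of the endothelial and muscle markers 2, 3 and 0 rose and 1, 2 and 0 fell, and their summed level was 8.51 to 10.1 CPM and then 22.5 to 27.7 CPM, 16.9 to 17.2 and 35.8 to 38.6 CPM, and 2.72 to 2.97 and 5.25 to 5.59 CPM. The part of any of these in the AP-1 changes was not tested.

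In virus-free wild-type chondrocytes edgeR called 0 of the 9 genes for IL-1β, for FX11, for both against untreated, and for both against IL-1β, with 0 at an unadjusted p of 0.05 or less in each. DESeq2 and limma also called 0, and edgeR called 0% of all 15461 genes in each of these comparisons. With the labels as given the standard errors reached 1.45, since the 2 libraries of a condition were far apart. For IL-1β the log2 fold changes were 1.95 ± 1.45 for Fosl1, 1.37 ± 0.75 for Fosl2, 1.76 ± 1.11 for Junb and 1.59 ± 0.89 for Maff. Without the 2 set 2 libraries that ran against their labels, which leaves 1 library labelled IL-1β, they were 2.85, 2.07, 2.63 and 2.33, still not called (adjusted p from 0.211 for Fosl2 to 0.691 for Fosl1), and Atf3 went from 0.17 to -1.50 (adjusted p = 0.764).

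In set 1, with 1 library a condition and so no replicate check, the pattern can be given as values. Untreated and IL-1β libraries were at 35.4 and 141 CPM for Fosl1, 186 and 645 CPM for Fosl2, 97.3 and 196 CPM for Jun, 53.1 and 214 CPM for Junb and 8.45 and 29.4 CPM for Maff. Fos was at 8.78 and 14.2 CPM, Fosb at 2.32 and 2.78 CPM and Jund at 131 and 154 CPM. Atf3 was at 35.2 CPM untreated, 48.5 CPM with FX11, 11.0 CPM with IL-1β and 13.6 CPM with both. Adding FX11 to IL-1β gave 0.567 times the level for Maff (16.6 CPM), 0.637 times for Fos (9.03 CPM), 0.797 times for Fosl2 (514 CPM), 0.806 times for Junb (173 CPM) and between 0.874 and 1.23 times for the other 5 genes. Without IL-1β, FX11 gave between 0.756 times (Maff) and 1.50 times (Fosl1) the untreated level.

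In set 2 the library labelled IL-1β held 10.0 CPM of Fosl1, 146 CPM of Fosl2, 19.6 CPM of Junb and 5.64 CPM of Maff, and the library labelled FX11 held 35.3, 433, 115 and 16.1 CPM, against 3.73, 119, 15.7 and 3.15 CPM in the untreated library. The library labelled with both held 27.1, 372, 113 and 11.4 CPM. For these 4 genes the high libraries of set 2 were therefore those labelled FX11 and both, as for Mmp3 (2033 and 675 CPM). For Atf3 the levels of set 2 were 26.5 CPM untreated, 15.2 CPM where labelled FX11, 58.4 CPM where labelled IL-1β and 51.7 CPM where labelled with both. Of the libraries high in Junb, 1 was thus low and 1 high in Atf3.

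**Figure D5:**
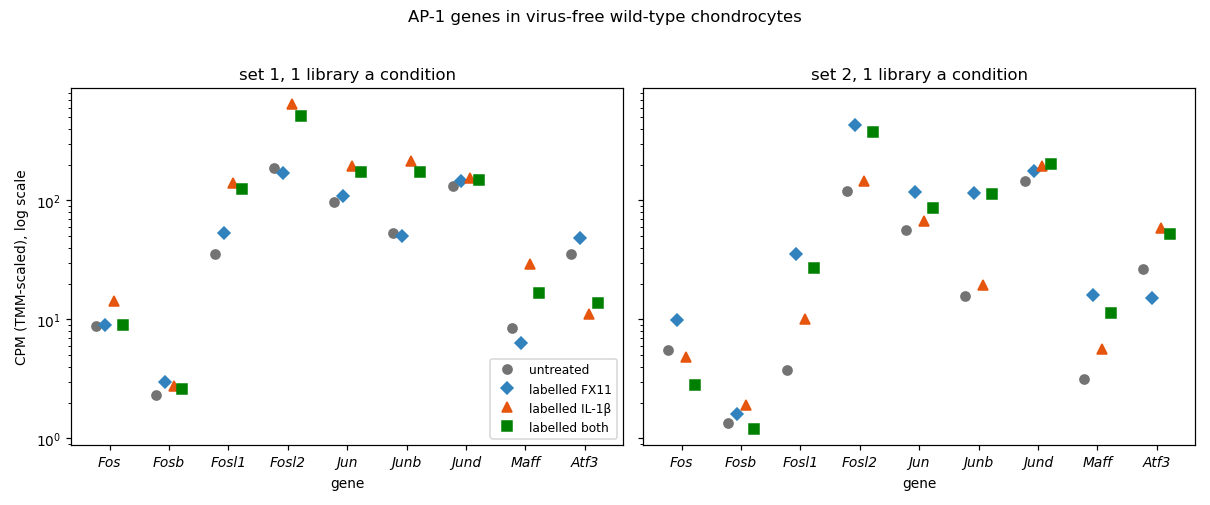
CPM (y axis, log scale, TMM-scaled) of the 9 genes (x axis) in each virus-free wild-type library, set 1 on the left and set 2 on the right, with 1 library for each labelled condition. In set 1 Fosl1, Fosl2, Jun, Junb and Maff are high in the libraries labelled IL-1β and both, and in set 2 in those labelled FX11 and both.

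GFP cultures of the floxed lines were also set against untreated virus-free wild-type cultures. Virus and line change together here and cannot be told apart. edgeR called 0 of the 9 genes, with 3 at an unadjusted p of 0.05 or less (Fosl1 1.79 ± 0.69, Jund -0.30 ± 0.09 and Atf3 0.32 ± 0.12), DESeq2 and limma called 0 too, and 6.45% of all genes were called. Fosl1 and Junb rested on the untreated set 2 library, which held 3.73 CPM of Fosl1 against 35.4 CPM in set 1. Both had other values where only 1 untreated wild-type library was in the fit, which was then assumed to vary like the GFP libraries. In set 1 alone, with 1 such library and 2 GFP libraries, edgeR called Fosl1 higher with GFP virus (0.72, adjusted p = 1.20e-06) and Junb lower (-0.44, adjusted p = 0.00653), whereas with the set 2 library as the only untreated one it called both higher (3.30 and 0.92, adjusted p = 0.045 and 0.0469). The summed macrophage and leukocyte markers were at 85.1 to 202 CPM in the untreated wild-type libraries and at 13.3 to 23.3 CPM in the GFP libraries, and their part in these values was not tested.

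Over the 16 condition means of log2 CPM, the members were also compared with 16397 genes as a description only, since the conditions share lines, sets and controls. The means of the wild-type conditions labelled IL-1β and FX11 include the pair of libraries that ran against their labels. The correlations were not computed without that pair. Among the genes most alike were Vsig10 and Sh2d5 for Fos (Pearson r = 0.895 each), Ercc1 and Ctdp1 for Fosb (0.973 and 0.972), Map3k6 and Fmnl3 for Fosl1 (0.977 each) and Tsku and Traf3ip2 for Fosl2 (0.965 and 0.963). They were Ctps and Errfi1 for Jun (0.976 and 0.966), Znrf1 and Gdnf for Junb (0.978 each), Ralgds and Lrp1 for Jund (0.925 and 0.922), Rnf145 and Zswim4 for Maff (0.972 and 0.970) and, for Atf3, Brd7 (0.932). Among the members themselves Jun ran most closely with Fosl1 and Maff (0.93 each), Fosl2 with Junb (0.87), and Atf3 ran against Fosl2 (-0.75) and Junb (-0.71).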

How the data were processed

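The authors depleted ribosomal RNA, aligned reads with STAR to the GRCm38 primary assembly of Ensembl release 76 and deposited raw counts of uniquely aligned reads per gene from featureCounts (the submitters' processing notes name STAR 2.0.4b and featureCounts 1.45), and whether strand was used is not given in the sources used here. The deposited CPM equals the count over the library total, and the deposited RPKM divides it by gene length; neither entered a test. Symbols came from GENCODE M21, which matched 40340 of 41388 identifiers, and 355 ribosomal RNA genes were left out. In R 4.3.3, counts were tested with edgeR 4.0.16 (quasi-likelihood, TMM factors, two-sided, Benjamini-Hochberg over all genes tested), calling genes at an adjusted p of 0.05 or less. A gene was tested if it passed 1 CPM in the size of the smaller group, less 1, or more libraries. The 6 against 6 comparison and the test between lines held line and set as covariates. The within-line tests used the 8 libraries of that line and the wild-type tests used 8, both without set as a covariate. Intervals and SDs cover these libraries only, and the 2 libraries of a condition differed by more than counting noise in all 16 conditions (chi-square per gene 6.96 to 437), so none was counted as a copy. Alternatives were DESeq2 1.42.0, limma 3.58.1 with quality weights as in the study, RLE factors, other filters, a replicate block, single sets and leaving out each library. On simulated counts with 200 genes changed 2-fold, the 6 against 6 fit recovered 200 among 14190 genes with 10 false calls, the test between lines 167 among 14191 with 13, and the fit for IL-1β in Ldha f/f GFP cultures 193 among 15088 with 5. The simulated counts had the same fixed dispersion for every gene and no shift between lines or sets. Changes were placed only in well-counted genes, so recovery in the real libraries was not measured. Where a fit leaves 1 library in a group, that library is assumed to vary like the other groups. The titles number the samples in 2 series, and in all 6 pairs of groups libraries of the same series deviated from their group means together in Ldha f/f (correlations 0.405 to 0.647) and Nampt f/f cultures (0.43 to 0.581), so the series was taken to pair them in the replicate block. Figures were drawn with matplotlib 3.10.9. The genes named are the 9 members, the 2 genes most like each over the 16 conditions, up to 3 genes per list with the smallest adjusted p for IL-1β in GFP cultures, and the targeted and label-check genes (Ldha, Nampt, Nfkbiz, Mmp3, Lcn2, Il6); other list genes named, among them Klf2, Klf4, Atf2, Mafk, Dusp8, Ccnd1, Myod1, Lyz2 and Col1a1, were chosen after their values were seen. The members and lists were chosen with earlier results of these data known. Lcn2, an acute-phase protein, rose from a mean of 29.2 to 4552 CPM with IL-1β in GFP cultures. Some genes covered by these rules are not reported here.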

Additional observations from a re-analysis of the deposited data

Results flagged for a closer look

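The size of the IL-1β response differed between the floxed lines with GFP virus, by a test of line by IL-1β, for Fosl2 (adjusted p = 2.06e-05), Junb (adjusted p = 0.00519) and Jund (adjusted p = 0.00302). All Nfkbiz f/f libraries belong to set 2, and what the sets stand for is not stated.

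The IL-1β response differed between Cre and GFP virus, by the interaction term on the log2 scale, for Fosl2 in cultures of the Ldha f/f (-0.83), the Nampt f/f (-0.93) and the Nfkbiz f/f line (-0.81), for Jun (-0.41) and Jund (0.46) in Nampt f/f cultures, and for Fos in Nfkbiz f/f cultures (-0.84). Fosl2 is the gene for which it was called in every line. No library stood apart from its group by Dixon's criterion in 18 tests of the 9 genes over the 6 GFP libraries with and the 6 without IL-1β, where chance flags about 1 in 20.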

How the results depend on the processing

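Over all alternatives 2470 values of single genes kept their direction and their side of the threshold, 37 fell short of it, 21 newly passed it and 1 reversed, which was Junb in set 1 alone against virus-free wild type (-0.44). Counts of called genes among the 9 moved by over 1.5 times as follows. The replicate block gave 2 for Cre without IL-1β in Ldha f/f (0 without it), 3 for Cre by IL-1β in Ldha f/f (1) and 6 for Cre without IL-1β in Nampt f/f cultures (3), and it changed no other count of members by as much. Libraries of the same series did not deviate together in all wild-type pairs (-0.241 to 0.724). Both libraries of each Nfkbiz f/f group belong to the same series, and their replicate numbers only follow the order of the samples (correlations -0.304 to 0.102), so no paired fit was made there. No filter gave 2 for Cre by IL-1β in Ldha f/f, DESeq2 and limma each gave 1 for Cre by IL-1β in Nfkbiz f/f (2), and set 1 alone gave 2 against virus-free wild type (0). Leaving out 1 library gave 1 to 2 for Cre by IL-1β in Ldha f/f, 1 to 3 for Cre without IL-1β in Nampt f/f, 3 to 7 for Cre with IL-1β and 0 to 2 for Cre by IL-1β in Nfkbiz f/f, and 0 to 2 against virus-free wild type. Over all genes the block raised the calls from 877 to 1994, 1825 to 3374, 2319 to 4311 and 3552 to 5648 for Cre without IL-1β and Cre by IL-1β in Ldha f/f and then Nampt f/f cultures, no filter from 40 to 170 for Cre without and from 797 to 1325 for Cre by IL-1β in Nfkbiz f/f, and DESeq2 from 0 to 6, 2, 153 and 1 in the wild-type comparisons and from 996 to 2053 against GFP cultures, where limma gave 358 and leaving out 1 library 203 to 1202. Leaving out 1 library gave 289 to 766 for Cre without IL-1β in Ldha f/f and 344 to 1892 for Cre by IL-1β in Nfkbiz f/f cultures. Fits without the wild-type pair that ran against its labels, chosen after seeing the data, called 0 of the 9 genes. RLE factors moved the median over all genes by at most 0.02. Fosb, with as few as 27 reads in a library, is the member that depth limits most.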
